A study of Mus musculus with 12 samples.

Results

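The alpha chain of the T cell receptor was described from the contigs of the 4 T cell receptor libraries of mouse aorta. Every productive contig assembled as an alpha chain (TRA) was a member, which gave 1120 chains in 1070 barcodes, beside 1813 beta (TRB) chains in 1783 barcodes. In all, 10104 barcodes of the series carried a T or B cell receptor chain. The library labelled Healthy held 741 alpha chains in 707 barcodes and the MTZ-preventive library 359 chains in 343 barcodes. The MTZ-treated library held 18 chains in 18 barcodes and the AS library 2 chains in 2 barcodes, so shares are given for the first pair only.

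By the study's account, male C57BL/6J ApoE−/− mice, aged 8 weeks at the start, were kept in 4 groups for 24 weeks, and the aortas of 6 mice per group were pooled for sequencing. The Healthy group received a normal diet with saline. Saline was also given to the AS group, whose diet contained 1% cholesterol and 10% fat. The MTZ-treated group was fed in the same way and given methazolamide (MTZ, a carbonic anhydrase inhibitor, written methoxazolamide in the labels) at 25 mg/kg every other day for the last 12 weeks, and the MTZ-preventive group was given this dose for all 24 weeks. ApoE deficiency was thus the stated genotype of all 4 groups, and 1 pool per group gives no spread between mice. No test between groups was made, and all intervals (95%) are exact and cover counting error only.

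Apoe in the library labelled Healthy went against the stated genotype. Among barcodes without any receptor chain, Apoe stood at 953 UMIs (unique molecular identifiers, 1 per captured molecule) per 1000000 UMIs, or CPM (940–966), in the gene expression library labelled Healthy, at 11.6 CPM in AS, at 12.8 CPM in MTZ-treated and at 8.84 CPM in MTZ-preventive. In the barcodes with an alpha chain the values were 82.8 CPM (72.2–94.5) and 3.73 CPM (1.02–9.54) in the library labelled Healthy and in MTZ-preventive. Genotype, diet, drug and pool therefore cannot be told apart in any difference between these libraries.

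The alpha chain gene is built in the thymus by joining one of many V segments to one of many J segments, with no D segment between them. Recombination can occur repeatedly on the same chromosome. Each new joint uses a V segment further upstream and a J segment further downstream, which deletes the joint before it. The junction codes for the third complementarity determining region (CDR3), the loop that lies over the antigenic peptide. Since alpha genes are not strictly silenced on one chromosome, a T cell can carry a pair of productive alpha chains. A few joints are nearly invariant, such as TRAV11 with TRAJ18 in natural killer T (NKT) cells, which recognise lipids on CD1d, and TRAV1 with TRAJ33 in mucosal-associated invariant T (MAIT) cells, which recognise vitamin B metabolites on MR1.

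In the RefSeq annotation of GRCm38 (mm10), 114 V segments lay on chromosome 14 from TRAV1 (chr14:52427967-52428876) to TRAV21-DV12, which ended at position 53876752. They spanned 1449 kb. After a gap of 278 kb, 60 J segments followed within 63.8 kb, from TRAJ61 (start 54155005) down to TRAJ1 (end 54218842), so that a high J number lies 5′. The V segments were divided by rank into 3 groups of 38, called distal, central and proximal by their distance from the J segments. The J segments were divided into a 5′ bin (number 43 or above), a middle bin (23 to 42) and a 3′ bin (22 or below). In C57BL/6 mice a block of V genes is present in copies, named with D or N, and the distal group held 31 D copies, the central group 31 N copies, and the proximal group no copy of either kind.

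The invariant NKT joint is shown first, because the same amino acids were coded in 3 ways in different libraries. TRAV11 lies at chr14:53519303-53519859 and TRAJ18 at chr14:54200777-54200842, both on the annotated locus and both coding. The CDR3 nucleotides of the 3 versions follow, 5′ to 3′, with the base at position 12, counted from the first base of the CDR3, in capitals.
TRAV11-TRAJ18, version with G: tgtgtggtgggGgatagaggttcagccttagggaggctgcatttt
TRAV11-TRAJ18, version with A: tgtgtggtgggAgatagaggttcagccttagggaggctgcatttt
TRAV11-TRAJ18, version with C: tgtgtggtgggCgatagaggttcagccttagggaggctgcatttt
The first version was found in 2 barcodes of the library labelled Healthy and in 2 of MTZ-preventive, the second in 2 barcodes of the library labelled Healthy, and the third in 1 barcode of MTZ-treated. All 7 chains had a CDR3 of 15 amino acids with the same protein sequence. Their 7 barcodes carried 7 different beta chains, so none of the repeats was a clone by both chains.

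Alpha chains found with identical V, J and CDR3 nucleotides in both large libraries are shown next, because they were the only T cell receptor chains shared, by nucleotides, between any of the 4 libraries. Capitals mark the 3′ part that at least 2 other rearrangements carried with the same J segment but another V gene.
TRAV1-TRAJ33 (J at chr14:54185358-54185414): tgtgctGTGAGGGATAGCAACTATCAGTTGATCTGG
TRAV12D-2-TRAJ18 (V at chr14:52915915-52916426): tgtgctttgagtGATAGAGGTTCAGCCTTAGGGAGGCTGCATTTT
TRAV6-7-DV9-TRAJ49 (V at chr14:53709943-53710419, J at chr14:54168686-54168744): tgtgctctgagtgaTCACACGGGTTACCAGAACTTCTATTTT
TRAV9-2-TRAJ44 (V at chr14:53591080-53591504, J at chr14:54173690-54173750): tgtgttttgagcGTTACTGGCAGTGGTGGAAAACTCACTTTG
With TRAV11-TRAJ18 these were 5 rearrangements, 0.687% of the 728 distinct ones of the library labelled Healthy and 1.44% (0.469–3.33) of the 347 of MTZ-preventive. None of the 5 was paired with the same beta chain in both libraries. Of distinct beta chains, 0 of 514 in MTZ-preventive were among the 1202 of the library labelled Healthy, which allows a share of up to 0.584%. One T cell receptor barcode occurred in both libraries, with an alpha chain in the library labelled Healthy only, and no barcode had an alpha chain in more than 1 library.

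The shared joints were also examined for bases that neither the V nor the J gene had in common with other chains. The 5′ part of a CDR3 that at least 2 other rearrangements of the same V gene carried (D and N copies joined), and the 3′ part shared in the same way with the same J gene were compared in rearrangements whose V and J genes were each seen in at least 10. A median of 1 base lay between these parts in both libraries, with quartiles of −1 and 3 in the library labelled Healthy and −1 and 2 in MTZ-preventive, where a negative value is an overlap. No base lay between them in 279 of 661 rearrangements (42.2%) of the library labelled Healthy and in 139 of 319 (43.6%) of MTZ-preventive. It was so in 4 of the 4 shared rearrangements that could be counted, with overlaps of 9 bases in TRAV1-TRAJ33, 5 in TRAV12D-2-TRAJ18, 3 in TRAV6-7-DV9-TRAJ49 and 1 in TRAV9-2-TRAJ44. TRAV11 was in too few rearrangements for the count. A germline sequence was not used here, so the measure is made from the chains alone. Bases added by chance, and bases that different V genes have in common, can lengthen a match.

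Alpha chains were supported by few molecules. The median was 2 UMIs per chain in both large libraries, against 4 for beta chains, and 35.0% of alpha chains of the library labelled Healthy and 27.9% of MTZ-preventive rested on 1 UMI. An alpha chain was found in 55.2% of the 1281 T cell receptor barcodes of the library labelled Healthy and in 57.1% of the 601 of MTZ-preventive, whereas a beta chain was found in 94.2% and 89.0%. Of the alpha barcodes, 633 (89.5%) and 277 (80.8%) also had a beta chain.

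The barcodes were those of T cells by their expressed genes. Of the alpha barcodes, 699 of 707, 1 of 2, 17 of 18 and 328 of 343 passed the study's limits in the gene expression libraries labelled Healthy, AS, MTZ-treated and MTZ-preventive. The 7 T cell genes (Cd3d, Cd3e, Cd3g and Cd247 of the CD3 complex, with Trac, Trbc1 and Trbc2) summed to 2435 CPM (2376–2495) in the alpha barcodes of the library labelled Healthy and to 87.5 CPM in its barcodes with B cell receptor chains alone. The same sums were 1788 CPM (1709–1869) and 38.2 CPM in MTZ-preventive. All 7 genes had UMIs in both sets of alpha barcodes. Genes of recombination and of pre-T cells were at or near 0, with no UMI of Rag1 or Rag2, which code for the recombinase, 3 and 1 UMIs of Dntt, which adds bases at the junction, and 1 and 0 of Ptcra. Gamma delta genes had 10 and 4 UMIs in total.

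Markers of other cells were present in these barcodes. Cd79a, which codes for a part of the B cell receptor complex, stood at 97.4 CPM (85.9–110) in the library labelled Healthy, where 45 alpha barcodes (6.36%) also had a B cell receptor chain, and at 40.06 CPM (28.99–53.96) in MTZ-preventive, where 9 (2.62%) had one. Against this the barcodes with B cell receptor chains alone stood at 2206 and 1366 CPM. The 4 myeloid genes summed to 6.37 CPM (3.71–10.2) and 154 CPM (131–179), of which Lyz2, a lysozyme gene of macrophages, alone made 4.12 and 150 CPM (161 UMIs in 5 barcodes of MTZ-preventive), and fibroblast genes (Col1a1 and Dcn) to 329 CPM and 951 CPM. Endothelial genes (Pecam1 and Cdh5) summed to 81.3 and 79.2 CPM and smooth muscle genes (Acta2 and Myh11) to 556 and 509 CPM. Their part in the results was not tested, other than by leaving out barcodes with B cell receptor chains or with 2 beta chains.

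Across all barcodes of the gene expression libraries that passed the limits, Trac stood at 39.96 CPM (37.9–42.1) in the library labelled Healthy and 2.84 CPM (1.42–5.09) in AS. It stood at 5.26 CPM (4.22–6.48) in MTZ-treated and 11.96 CPM (10.95–13.04) in MTZ-preventive. This is the order of the numbers of alpha barcodes. In such sums, fewer T cells and less RNA per T cell cannot be told apart.

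V genes were used along the whole locus. In the library labelled Healthy 83 of the 114 V segments were used and in MTZ-preventive 74, and 71 were used in both. The 10 most used V genes made 31.3% and 35.4% of chains, and no gene exceeded 3.64% in the library labelled Healthy or 5.01% in MTZ-preventive. TRAV7D-2, TRAV12-2 and TRAV3D-3 led the library labelled Healthy with 27 chains each, followed by TRAV6N-7 and TRAV13-1 with 24 each and TRAV4D-4 with 22. TRAV3D-3 led MTZ-preventive with 18 chains, followed by TRAV13D-2 with 15, and TRAV12D-2 and TRAV6N-7 with 14 each. The exact intervals of these shares overlapped, so the order among the leading genes is not resolved at this depth. The first V gene of the locus, TRAV1, was used in 8 and 5 chains and the last, TRAV21-DV12, in 8 and 5. V genes that the delta chain can use too, named with DV, made 9.58% (7.56–11.9) and 9.19% (6.41–12.7) of chains.

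**Figure D1:**
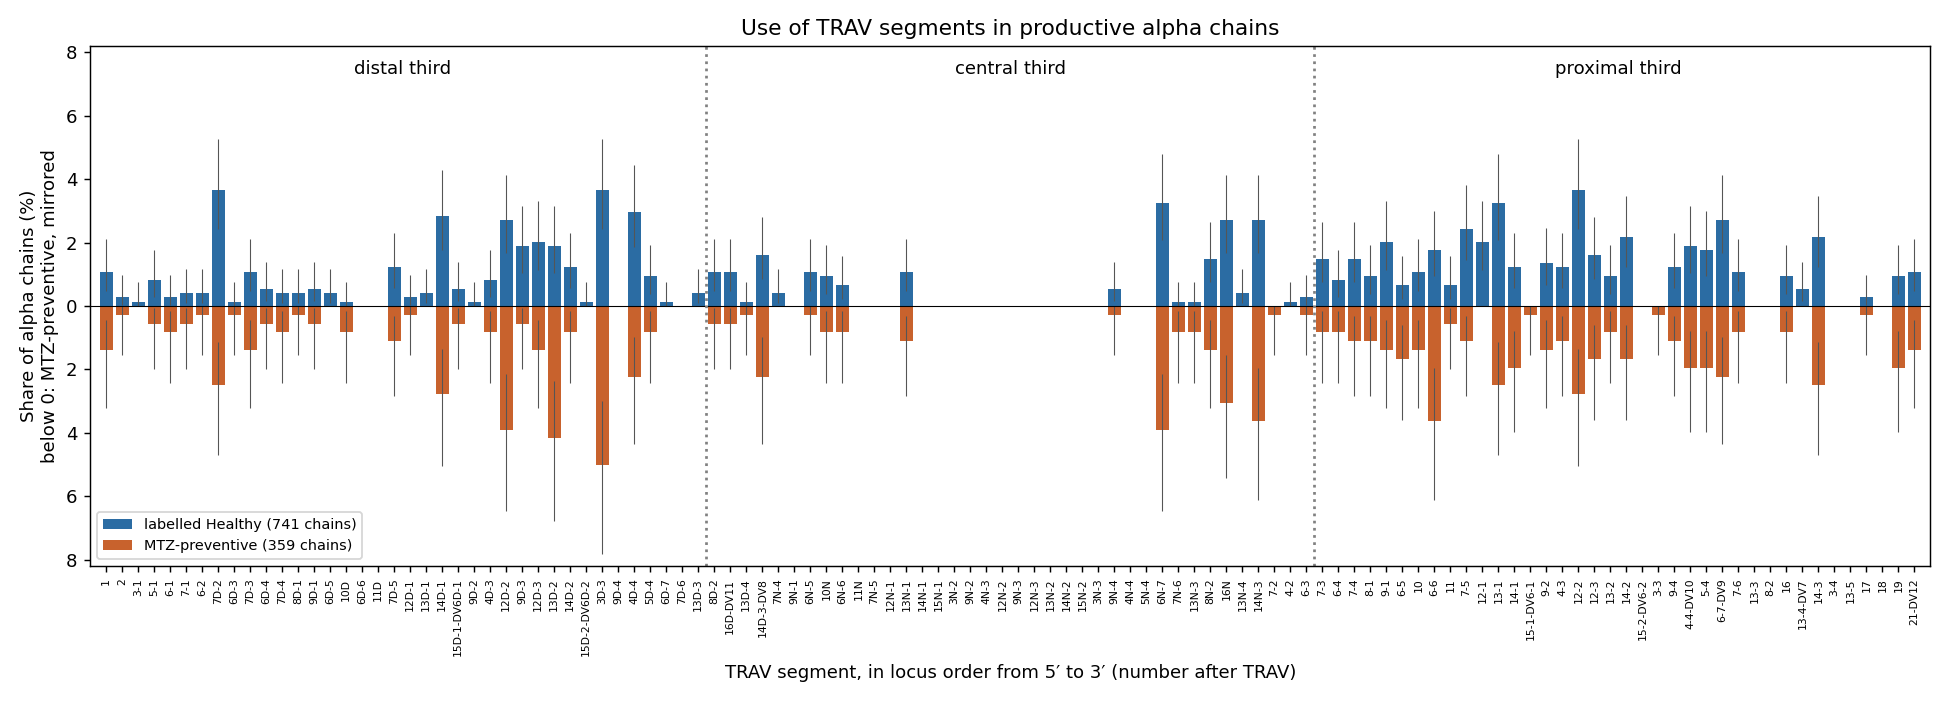
Share of alpha chains (%) that used each V segment, in locus order from 5′ to 3′, in the library labelled Healthy (upward bars, 741 chains) and in MTZ-preventive (downward bars, 359 chains). Lines are exact 95% intervals for counting error. Dotted lines part the 3 groups of 38 V segments. Use is spread over the distal and proximal groups, with a long stretch of N copies at 0 in the central group.

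Chains of the distal, central and proximal V groups numbered 258, 147 and 336 in the library labelled Healthy. Proximal V genes made 45.3% of chains there (41.7–49.0) and 43.2% (37.99–48.5) in MTZ-preventive, a ratio of 0.952 (0.782–1.16). Distal V genes made 34.8% and 35.7%, and central ones 19.8% and 21.2%, so the order of the 3 groups was the same in both. The 28 V segments used in neither library included 18 of the 31 N copies, 4 of the 35 D copies and 6 of the 48 without such a letter.

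The copies set a limit on V position. In 19 of 29 used pairs of a D and an N copy, one copy had no chain, and 88.3% of the 504 chains in such pairs were given to the more used copy. TRAV12D-2 had 34 chains and TRAV12N-2 none, TRAV3D-3 had 45 and TRAV3N-3 none, and TRAV6N-7 had 38 and TRAV6D-7 1. Copies with the same sequence cannot be separated by a contig, and whether that holds for these pairs was not tested. The genes without such a letter belong to the same families. Some of them took few or no chains, as with TRAV3-3, which had 1 chain, and TRAV8-2, which had none against 10 for TRAV8D-2 and 16 for TRAV8N-2. In other families the chains were divided, as with TRAV12-2, which had 37 chains against 34 for TRAV12D-2. Position is therefore uncertain for the D and N copies. How far this holds for the genes without such a letter was not tested.

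V genes were also read in the gene expression libraries, which hold most of the same barcodes. Whether a contig and a Trav UMI came from the same captured molecule was not tested, so the readings are not taken as independent. Among barcodes with 1 alpha chain, 474 of 671 (70.6%) in the library labelled Healthy had a UMI of some Trav gene, against 1.36% of barcodes with B cell receptor chains alone (median depths of all alpha barcodes and of those B cell barcodes 3415 and 1977 UMIs). In MTZ-preventive it was 181 of 323 (56.0%) against 0.638% (2781 and 1718 UMIs). Where a Trav gene was seen, the V gene of the contig was among them in 402 barcodes (84.8%) and 158 barcodes (87.3%). A Trav UMI was seen in 298 of 329 and 121 of 151 barcodes for V genes without D or N in their name. For D copies it was 93 of 234 and 34 of 117, and for N copies 83 of 108 and 26 of 55. Among barcodes with such a UMI, the V gene of the contig was seen in 93.96% and 94.2% for genes without a letter. It was seen in 57.0% and 61.8% for D copies and in 83.1% and 88.5% for N copies. Of all Trav UMIs, 74.5% and 80.9% were of the contig's V gene and 1.76% and 1.22% of another copy of it.

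J genes were used along most of their cluster. The same 43 of the 60 J segments were used in both libraries, and none of the 9 that RefSeq lists as pseudogenes. The 8 other unused ones were TRAJ59, TRAJ46, TRAJ41, TRAJ29, TRAJ25, TRAJ20, TRAJ19 and TRAJ3. TRAJ31 led the library labelled Healthy with 40 chains (5.398%), followed by TRAJ22 with 37, TRAJ27 with 36, TRAJ30 with 34 and TRAJ15 with 31. TRAJ9 led MTZ-preventive with 19 chains (5.29%), followed by TRAJ27 with 18 and TRAJ23 with 16. The most 5′ segment in use, TRAJ58, had 5 and 4 chains and the most 3′, TRAJ2, had 7 and 2. The 5′ bin held 19.2% of chains (16.4–22.2) in the library labelled Healthy and 17.8% (14.01–22.2) in MTZ-preventive, a ratio of 0.930 (0.681–1.26). The middle bin held 44.8% and 46.0% and the 3′ bin 36.0% and 36.2%.

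**Figure D2:**
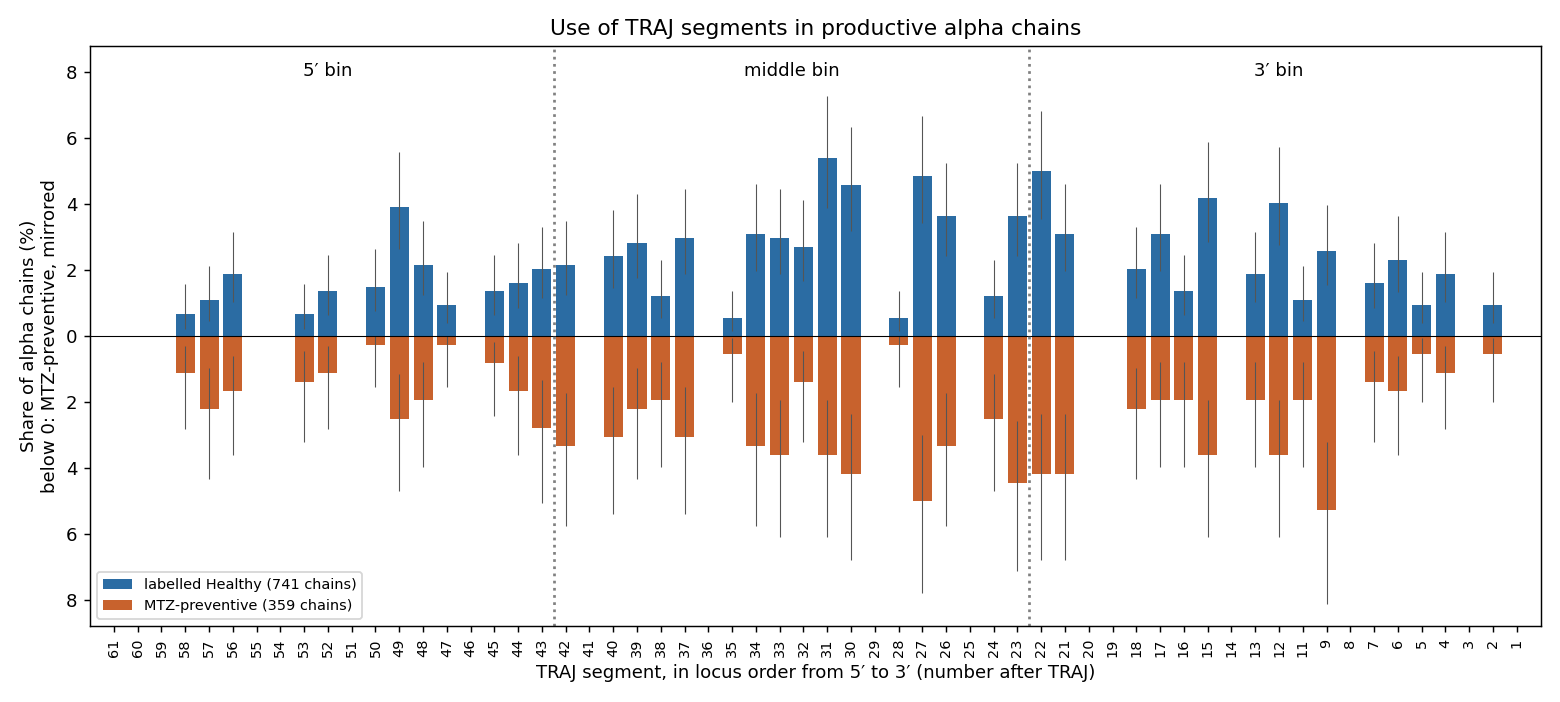
Share of alpha chains (%) that used each J segment, in locus order from 5′ to 3′, in the library labelled Healthy (upward bars) and in MTZ-preventive (downward bars). Lines are exact 95% intervals for counting error, and dotted lines part the bins. The same segments are at 0 in both libraries, and TRAJ9 is the tallest downward bar at 5.29%.

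Shares of single genes were set side by side for the large libraries. Of 21 V genes with at least 20 chains in both libraries together, 3 (14.3%) stood 2-fold or more apart. TRAV13D-2 had 14 of 741 and 15 of 359 chains, a ratio of MTZ-preventive over the library labelled Healthy of 2.21 (0.995–4.94). TRAV6-6 had 13 in each, a ratio of 2.06 (0.882–4.83), and TRAV7-5 had 18 and 4, a ratio of 0.459 (0.113–1.39). The interval held 1 for all 21 genes, and with D and N copies joined to their base gene 0 of 22 stood 2-fold apart. With each rearrangement counted once, 2 of 19 V genes stood 2-fold apart. TRAV13D-2, with 14 and 13 rearrangements, was then not among them. TRAV12-1 fell under the minimum of 20 and was noted after its values were seen. It had 15 of 741 chains (2.02%) in the library labelled Healthy and 0 of 359 in MTZ-preventive, which allows a share of up to 0.836%, and the interval of the ratio (0–0.575) left out 1. Of the 15 chains, 3 were 1 clone, and with copies joined the counts were 17 and 1, a ratio of 0.121 (0.00291–0.775). The next ratios were 1.44 for TRAV12D-2 and 1.38 for both TRAV3D-3 and TRAV14D-3-DV8 on the high side, and 0.688 for TRAV7D-2, TRAV12D-3 and TRAV9-1 on the low side.

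Of 25 J genes, 1 (4%) stood 2-fold or more apart. TRAJ9 had 19 chains in each library, a ratio of 2.06 (1.03–4.12). Of the 19 TRAJ9 chains of MTZ-preventive, 6 belonged to 3 rearrangements found in 2 barcodes each, and with each rearrangement counted once, 0 of 24 J genes passed. The lowest ratio was that of TRAJ32, 0.516 (0.151–1.42), from 20 and 5 chains, and TRAJ42 and TRAJ43 had ratios of 1.55 and 1.38. Side by side, the shares of the 43 J genes had a Spearman rho of 0.810 between the libraries and those of 86 V genes 0.808. These describe genes of 2 libraries read with the same reference.

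V and J positions were related in both libraries, which is the main pattern in these chains. Proximal V genes were joined to a 5′ J gene in 100 of 336 chains (29.8%; 24.9–35.0) in the library labelled Healthy and in 46 of 155 (29.7%; 22.6–37.5) in MTZ-preventive. Distal V genes were joined to one in 27 of 258 (10.5%; 7.01–14.9) and 13 of 128 (10.2%; 5.52–16.7), and central V genes in 15 of 147 (10.2%; 5.82–16.3) and 5 of 76 (6.58%; 2.17–14.7). In each library the interval of the proximal group lay above those of the other groups.

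The opposite was seen for the 3′ bin. Central V genes were joined to a 3′ J gene in 57.8% (49.4–65.9) and 51.3% (39.6–63.0) of chains, distal ones in 46.9% (40.7–53.2) and 50.8% (41.8–59.7), and proximal ones in 18.2% (14.2–22.7) and 16.8% (11.3–23.6). Relative to the product of the 2 shares, proximal V with 5′ J was 1.55 times as frequent in the library labelled Healthy and 1.66 times in MTZ-preventive, and proximal V with 3′ J 0.504 and 0.463 times. Over chains, the Spearman rho of V position with J position was −0.402 (741 chains) and −0.428 (359 chains), where the chains of a library share pooled mice.

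The shift ran gradually through the proximal V genes. With the V genes divided by rank into sixths, the median J number in the library labelled Healthy was 27, 21.5, 17, 23, 32 and 42 from 5′ to 3′, and in MTZ-preventive it was 26.5, 21, 19.5, 23.5, 32 and 43. By the V names given, the lowest values lay in the middle of the locus and not at its 5′ end. Among V genes without D or N in their name, rho was −0.466 (364 chains) and −0.499 (171 chains). Within the proximal group it was −0.450 and −0.462, and within the distal group 0.186 and 0.197. The distal and central groups are mostly D and N copies, whose position is uncertain. The low medians there and the rho of the distal group depend on how chains were assigned to copies, which was not tested.

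**Figure D3:**
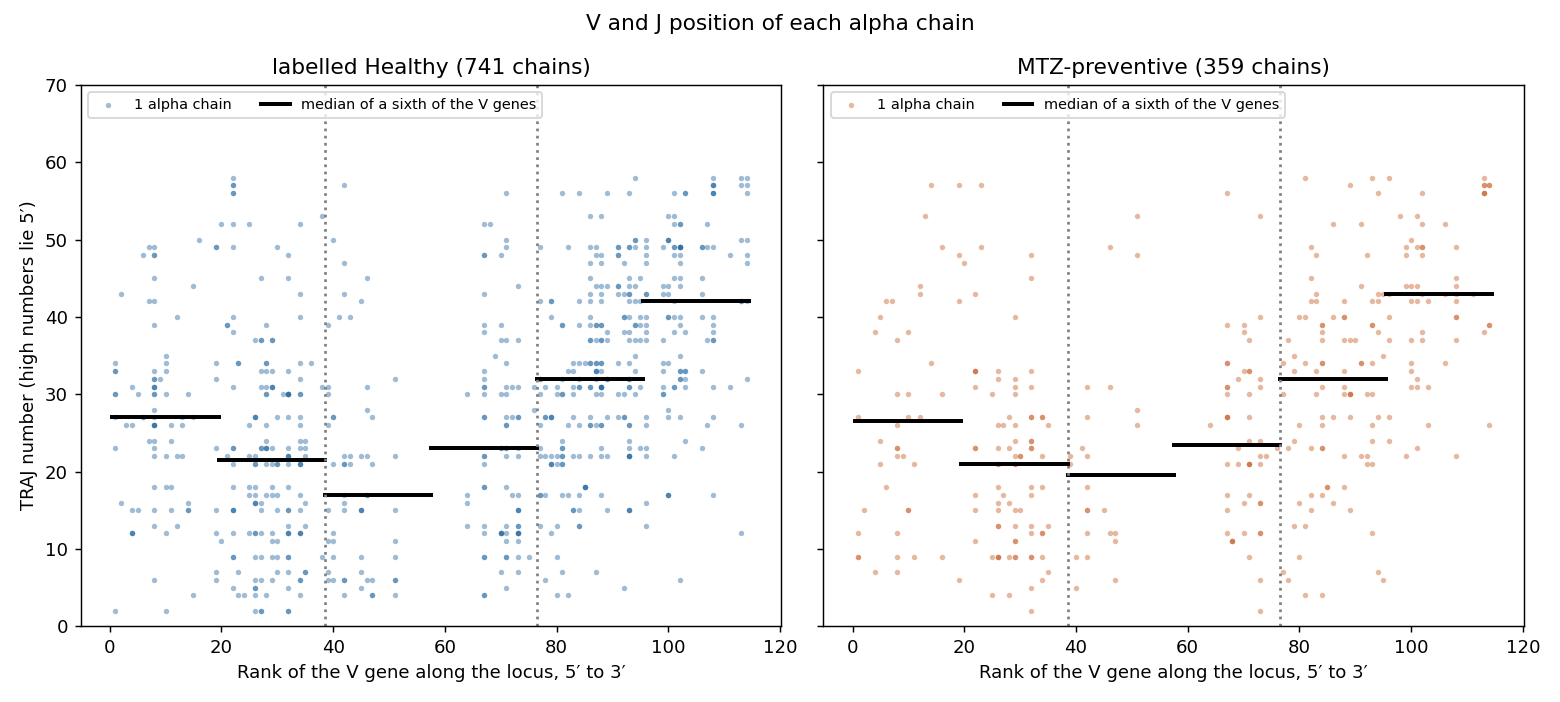
J number against the rank of the V gene along the locus, 1 point per alpha chain, in the library labelled Healthy (741 chains) and in MTZ-preventive (359 chains). Black lines give the median J number of each sixth of the V genes, and dotted lines part the 3 V groups. Medians are 42 and 43 in the last sixth and 17 and 19.5 in the third.

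The chains of both libraries were pooled to describe single V genes. TRAV12D-2 of the distal group had 34 chains with a median J number of 16, of which 0 used a 5′ J and 26 a 3′ J. TRAV14N-3 of the central group had 33 chains with a median of 16, 2 of them 5′ and 22 of them 3′. In the proximal group, TRAV13-1 had 33 chains with a median of 33, TRAV6-7-DV9 had 28 with a median of 46, of which 17 used a 5′ J and 1 a 3′ J, and TRAV21-DV12, the V gene nearest to the J segments, had 13 with a median of 48 and none with a 3′ J. TRAV1, the most distant, had 13 chains with a median of 27 and none with a 5′ J. TRAV11, also proximal, had 7 chains with a median of 18, of which 6 were the invariant joint.

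Most V-J pairs were seen only once. The 728 distinct rearrangements of the library labelled Healthy fell into 575 V-J pairs, of which 456 were seen once, and the 347 of MTZ-preventive fell into 311, of which 280 were seen once. In all, 770 of 3698 possible pairs of the segments in use were seen, and 116 pairs occurred in both libraries, 20.2% of those of the library labelled Healthy and 37.3% of those of MTZ-preventive. TRAV6-7-DV9 with TRAJ49 had the most distinct rearrangements, 5 and 2, followed by TRAV13-1 with TRAJ31 (5 and 1). In the library labelled Healthy, 4 distinct rearrangements each were found for TRAV14N-3 with TRAJ12, TRAV8N-2 with TRAJ12, TRAV7D-2 with TRAJ26, TRAV12-2 with TRAJ22 and TRAV3D-3 with TRAJ30. The largest pairs of MTZ-preventive had 3 distinct rearrangements, and these were TRAV6N-7 with TRAJ27, TRAV12D-2 with TRAJ9, TRAV14-1 with TRAJ30, TRAV16N with TRAJ21 and TRAV19 with TRAJ56. Recurrent pairs joined proximal V genes to J genes of every bin, for instance TRAV6-7-DV9 to TRAJ49 of the 5′ bin and TRAV12-2 to TRAJ22 of the 3′ bin.

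The 18 chains of MTZ-treated, each in its own barcode and none repeated, had 12 proximal, 4 central and 2 distal V genes. All 5 chains with a 5′ J gene had a proximal V gene, namely TRAV12-2 with TRAJ49, TRAV14-2 with TRAJ58, TRAV21-DV12 with TRAJ56 and TRAV6-7-DV9 with TRAJ48 and TRAJ49. The 2 chains of AS were the same rearrangement of TRAV6N-7 with TRAJ12 in 2 barcodes that also shared their beta chain. These counts are too few to set beside the shares of the larger libraries.

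A pair of alpha chains was found in 34 of 707 barcodes (4.81%; 3.35–6.66) of the library labelled Healthy and in 16 of 343 (4.66%; 2.69–7.46) of MTZ-preventive, and no barcode had 3. All of them had a beta chain. Of them, 4 of 34 and 2 of 16 had 2 beta chains, against 2.67% and 1.83% of barcodes with 1 alpha chain, and 3 and 0 had a B cell receptor chain. Barcodes with 2 cells can hold 2 chains of each kind, and their part was not tested further than by leaving them out. The alpha chain with more UMIs had a median of 2 UMIs and the other a median of 1, so a second chain was near the limit of detection.

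The J genes of the 2 chains of a barcode lay near each other. Both chains used the same J bin in 22 of 34 barcodes (64.7%; 46.5–80.3) of the library labelled Healthy and in 9 of 16 (56.2%; 29.9–80.2) of MTZ-preventive, where the J bin shares of all chains would give 36.7% and 37.4%. The median distance between the 2 J genes was 9.84 kb and 8.01 kb, against 14.5 kb for any 2 chains in either library. The Spearman rho of the 2 J numbers, each barcode entered in both orders, was 0.550 over 34 barcodes and 0.619 over 16. Without barcodes with 2 beta chains or a B cell receptor chain it was 0.561 over 29 and 0.791 over 14. The ranks of the 2 V genes were less closely related, with rho of 0.240 and 0.347. These are descriptions over barcodes that share a library.

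**Figure D4:**
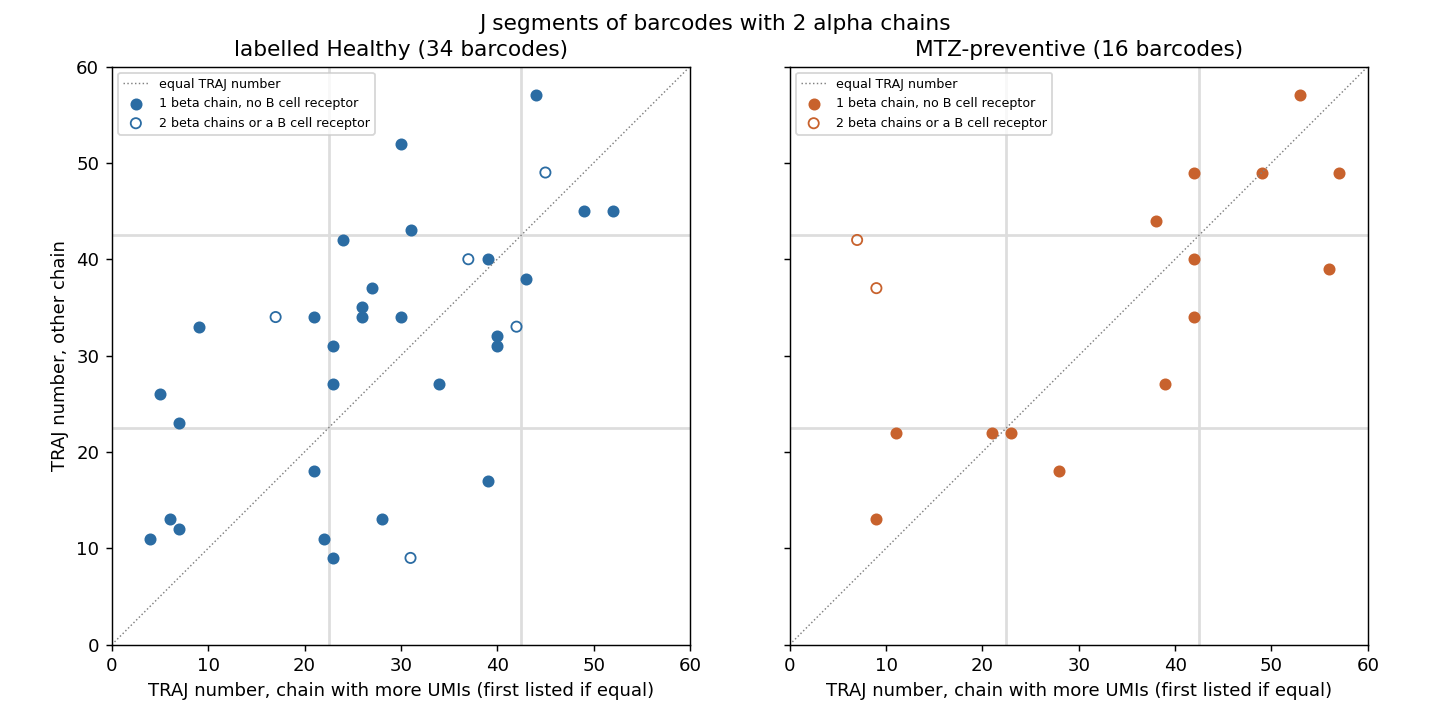
J numbers of the 2 alpha chains of each barcode that had 2, in the library labelled Healthy (34 barcodes) and in MTZ-preventive (16 barcodes). Open circles had 2 beta chains or a B cell receptor chain. Grey lines part the J bins and the dotted line marks equal numbers. The same bin holds both chains in 22 of 34 and 9 of 16 barcodes.

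The CDR3 of the alpha chain was 13.6 amino acids long on average in both libraries (SD 1.37 over 741 chains and 1.30 over 359), with a median of 14 and ranges of 7 to 18 and 10 to 17. Lengths of 13 to 15 made 75.3% and 74.7% of chains. The mean was 13.9 (SD 1.39) in the 18 chains of MTZ-treated and 12 in both chains of AS. Beta chains were slightly longer, at 13.8 in both large libraries (SD 1.38 over 1229 and 1.497 over 543).

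Length went with the J gene. Over 25 J genes with at least 20 chains, the mean ran from 12.2 amino acids (SD 1.17, 53 chains) for TRAJ31 to 15.1 (SD 0.757, 23 chains) for TRAJ18, the J gene of invariant NKT cells. TRAJ43 was also short, with 12.3 in both libraries, and TRAJ42 long, with 14.8 in both. J genes accounted for 30.4% of the variance of length over both libraries and V genes for 16.9%. Shares of this kind rise with the number of genes compared, and how much that number alone would give was not tested. The libraries differed most for TRAJ32, with 14.95 (SD 1.19, 20 chains) in the library labelled Healthy and 13.4 (SD 2.07, 5 chains) in MTZ-preventive, which is within 1 SD of the latter.

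**Figure D5:**
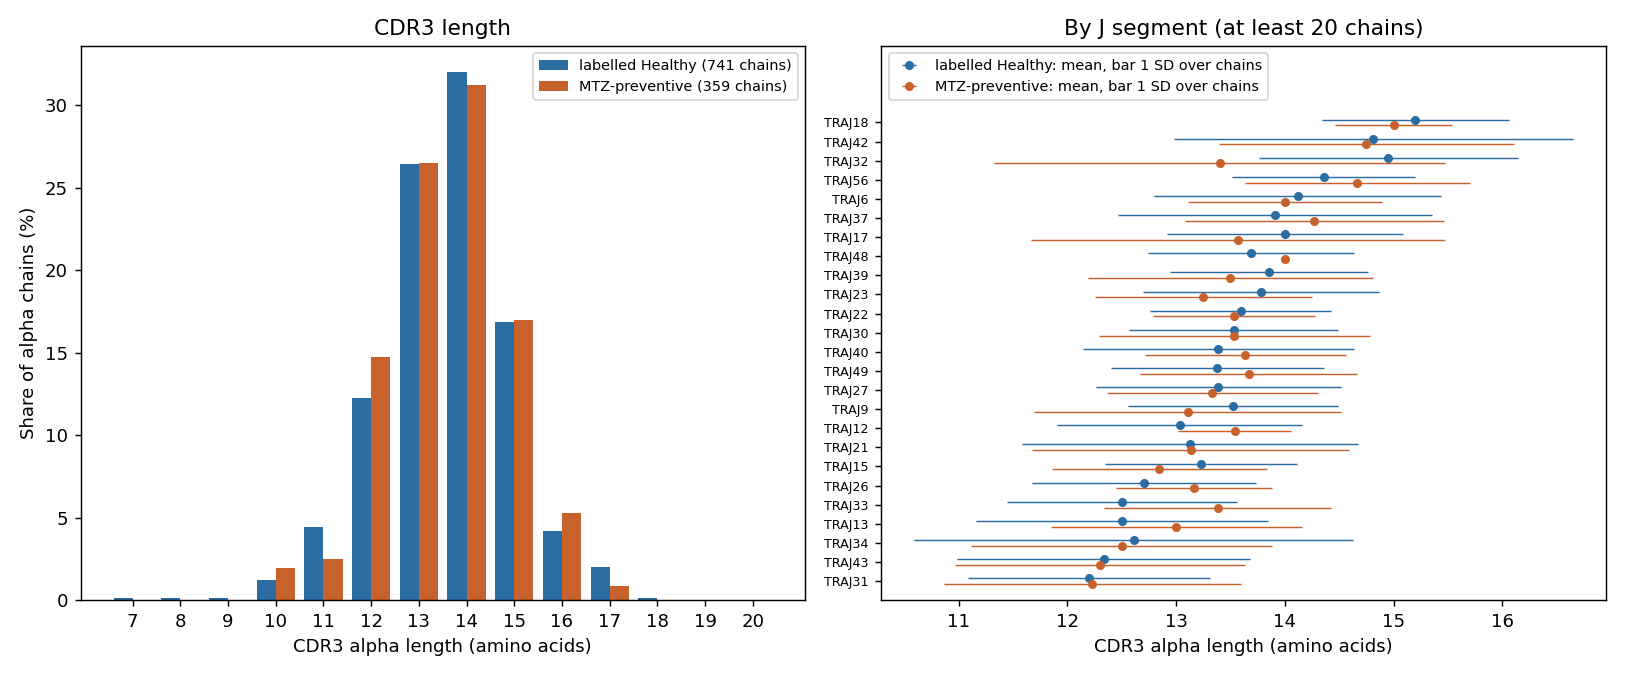
Left, share of alpha chains (%) by CDR3 length in amino acids in the library labelled Healthy and in MTZ-preventive, which have their highest bars at 14. Right, mean length for each J gene with at least 20 chains, for each library, with bars of 1 SD over chains. TRAJ31 has the lowest mean in both libraries (12.2 in each) and TRAJ18 the highest (15.2 in the library labelled Healthy and 15 in MTZ-preventive).

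Repeated alpha chains were of 2 kinds. An alpha chain with the same V, J and CDR3 nucleotides was found in more than 1 barcode for 10 rearrangements in the library labelled Healthy, in 23 of 707 barcodes (3.25%; 2.07–4.84), and for 10 in MTZ-preventive, in 22 of 343 (6.41%; 4.06–9.55), a ratio of 1.97 (1.05–3.70). In the library labelled Healthy, 4 of the 10 were paired with the same beta chain, in 11 barcodes (1.56%; 0.779–2.77), and 6 with a different one in each barcode. In MTZ-preventive 8 shared their beta chain, in 18 barcodes (5.25%; 3.14–8.17), and 2 did not. One of these 18, a barcode of the TRAV7N-6 clone described next, had no beta chain and was counted by its alpha chain. The expression library of MTZ-preventive held 339 of 343 alpha barcodes, but 0 of 2 of the TRAV13D-2-TRAJ11 repeat and 2 of 3 of TRAV14D-1-TRAJ33. The library labelled Healthy held 705 of 707, but 1 of 2 of the TRAV7-6-TRAJ56 repeat. Whether the missing barcodes were cells was not tested. The ratio was 3.37 (1.51–7.903) for repeats with the same beta chain. Both ratios count barcodes, which enter in sets, here from 4 and 8 rearrangements with the same beta chain. The intervals take each barcode as a separate count and are therefore too narrow. Neither interval left out 1 among barcodes that passed the gene expression limits, where the ratios were 1.52 (0.730–3.10) for any repeated alpha chain, from 21 of 699 and 15 of 328 barcodes, and 2.60 (0.981–7.11) for those with the same beta chain, from 9 and 11. Among contigs with at least 3 UMIs the ratios were 5.16 (0.922–52.3), from 2 of 239 and 6 of 139 barcodes, and 3.44 (0.493–38.02), from 2 and 4. Without replicate pools it was not tested whether this exceeds the difference between mice, and Apoe in the library labelled Healthy goes against the stated genotype.

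Chains repeated with different beta chains were TRAV12D-2 with TRAJ5, TRAV3D-3 with TRAJ30, TRAV6-6 with TRAJ13, TRAV9-1 with TRAJ22 and both TRAV11-TRAJ18 versions in the library labelled Healthy, and TRAV3D-3 with TRAJ9 and TRAV11-TRAJ18 in MTZ-preventive. The largest repeats with the same beta chain had 3 barcodes, and they are shown because they mark barcodes of 1 clone. Capitals mark the 3′ part shared with other rearrangements of the J gene, as above.
Healthy, TRAV4-4-DV10-TRAJ17 (V at chr14:53683677-53684177): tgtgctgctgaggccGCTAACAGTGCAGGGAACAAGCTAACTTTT
Healthy, TRAV5-1-TRAJ12 (V at chr14:52622566-52623082): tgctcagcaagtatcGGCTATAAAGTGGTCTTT
Healthy, TRAV12-1-TRAJ33 (V at chr14:53538266-53538738): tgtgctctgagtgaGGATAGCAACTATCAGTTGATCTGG
MTZ-preventive, TRAV7N-6-TRAJ11 (V at chr14:53324676-53325208): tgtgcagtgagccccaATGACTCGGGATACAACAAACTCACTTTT
MTZ-preventive, TRAV14D-1-TRAJ33 (V at chr14:52855665-52856166): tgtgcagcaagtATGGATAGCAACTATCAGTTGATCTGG
AS, TRAV6N-7-TRAJ12 (V at chr14:53318818-53319284, 2 barcodes): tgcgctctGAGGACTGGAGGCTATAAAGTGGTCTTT

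Transcripts of cytotoxic T cells were seen in some of these clones and not in others. All 9 barcodes of the TRAV12-1, TRAV4-4-DV10 and TRAV5-1 clones of the library labelled Healthy had UMIs of Cd8a or Cd8b1, the CD8 coreceptor, and none of Cd4. The TRAV4-4-DV10 clone held 342 UMIs of the chemokine gene Ccl5 and 29 of Gzma, which codes for granzyme A, the TRAV5-1 clone 143 and 0, and the TRAV12-1 clone 8 and 0. In MTZ-preventive, the 3 barcodes of the TRAV7N-6 clone held 289 UMIs of Ccl5 and 81 of Gzma, and the TRAV9-2-TRAJ34 clone 221 and 17 in 2 barcodes. At least 1 barcode of the TRAV9-2-TRAJ34 clone carried a second beta chain, and whether it held 2 cells was not tested. The TRAV13D-2-TRAJ9 clone had Cd4 in both barcodes and no Ccl5, and the TRAV14D-1 clone had none of Ccl5 or Gzma in the 2 barcodes found in the matrix. No clone of MTZ-preventive other than TRAV7N-6 and TRAV9-2-TRAJ34 had a UMI of Ccl5 in the matrix, so the sum that follows rests on those clones. Summed over the 12 clone barcodes of MTZ-preventive that passed the limits, Ccl5 stood at 10795 CPM (9863–11791), against 1862 CPM (1780–1948) in its 316 other alpha barcodes. The values in the library labelled Healthy were 15919 CPM (14544–17388) in 9 clone barcodes and 843 CPM in 690 others.

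Invariant chains were rare. TRAV11 with TRAJ18 made 4 of 741 chains (0.540%; 0.147–1.38) in the library labelled Healthy, 2 of 359 (0.557%; 0.0675–1.998) in MTZ-preventive, 1 of 18 in MTZ-treated and 0 of 2 in AS. TRAV11D, its distal copy, was not seen. These 7 barcodes made up most of the use of TRAV11, which had 5 chains in the library labelled Healthy, 2 in MTZ-preventive and 1 in MTZ-treated, but not of TRAJ18, which had 15, 8 and 2. TRAV1 with TRAJ33 made 2 of 741 chains (0.270%; 0.0327–0.972) and 1 of 359 (0.279%; 0.00705–1.54), and the MTZ-treated library had none among 18. One of the first 2 had the CDR3 printed above, and the other a different amino acid sequence of the same length of 12.

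None of the 10 invariant barcodes had a UMI of Cd4, Cd8a or Cd8b1. The same held for 41.5% of all alpha barcodes that passed the limits in the library labelled Healthy. In MTZ-preventive and MTZ-treated it held for 56.7% and 47.1%, so the missing UMIs are not read as absence of the coreceptors. Zbtb16, which codes for the transcription factor PLZF of innate-like T cells, had a UMI in 1 of 4 NKT barcodes of the library labelled Healthy, in 1 of 2 of MTZ-preventive, and in both MAIT barcodes of the library labelled Healthy. All 3 MAIT barcodes had UMIs of Cxcr6 and Il2rb. Over all alpha barcodes, a UMI of Zbtb16 was found in 1.43% and 4.27%, close to the 1.19% and 4.29% of barcodes with B cell receptor chains alone and under the 8.14% and 12.1% of barcodes without a receptor chain, so single UMIs of Zbtb16 are not read as expression here. Cxcr6 was found in 2.86% and 4.57% of alpha barcodes against 0.0277% and 0.406% of those B cell barcodes, and Il2rb in 21.6% and 32.9% against 0.747% and 1.33%. The 5 genes of the invariant T list summed to 20.6 and 44.7 CPM in alpha barcodes and to 51.8 and 68.7 CPM in barcodes without a receptor chain.

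Alpha gene use was also given for barcodes with Cd4 and with Cd8 transcripts, which code for the coreceptors of helper and cytotoxic T cells. In the library labelled Healthy, 112 alpha barcodes had UMIs of Cd4 and not of Cd8a or Cd8b1, and 289 the reverse. In its 3615 barcodes with B cell receptor chains alone these were 11 (0.304%) and 88 (2.43%). In MTZ-preventive there were 38 and 103 such alpha barcodes. A 5′ J gene was used by 19.7% (12.9–28.0) of the chains with Cd4 and 16.6% (12.6–21.3) of those with Cd8 in the library labelled Healthy, and by 17.5% (7.34–32.8) and 22 of 110 chains (12.98–28.7%) in MTZ-preventive. Distal V genes were used by 41.0% (32.02–50.5) and 31.9% (26.7–37.5), and by 10 of 40 chains (12.7–41.2%) and 32.7% (24.1–42.3) in MTZ-preventive, so the order was opposite in the 2 libraries and the intervals overlapped. The rho of V with J position was −0.395 and −0.442 in the library labelled Healthy and −0.495 and −0.372 in MTZ-preventive.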

How the data were processed

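T cell receptor contigs of 4 libraries of mouse aorta cells, 1 per condition, were analysed with the matched gene expression and B cell receptor libraries. Per the labels and file headers, the authors used Cell Ranger (version 5.0.0 in the matrix header) and STAR with mm10. Values were deposited as unnormalized UMI counts for each gene and barcode, and as counts of UMIs and reads for each contig. The contig files listed only full-length, productive, high-confidence contigs of called cells, and the receptor reference is not given in the sources used here. A chain with few molecules can be missed, so barcodes with 1 alpha chain may hold 2.

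The members and lists were chosen with earlier results of these data known. V and J names were matched to RefSeq (GRCm38.p6), credited for all coordinates, where all names were found. Contig counts were taken as deposited. Gene expression barcodes were kept with over 200 genes, over 1000 UMIs, log10 of genes over log10 of UMIs above 0.7, under 10% mitochondrial and under 5% red blood cell UMIs. No doublet caller was run. Gene counts were summed over barcodes and scaled to a total of 1000000 (CPM). Intervals were Clopper-Pearson for shares, conditional binomial for ratios and Poisson for CPM, all at 95%. A count of 0 was given a limit of 3 counts. The depth was 1692 and 917 UMIs of alpha chains in the library labelled Healthy and in MTZ-preventive, and 42235505, 7617682, 26196680 and 50769911 UMIs in the gene expression libraries labelled Healthy, AS, MTZ-treated and MTZ-preventive.

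Named V and J genes were the 10 most used in each large library, the 5 highest and 5 lowest ratios among those with at least 20 chains, the ends of the locus and the invariant ones. Pairs were the 5 with most distinct rearrangements in each library, with ties, and clonotypes the 5 largest of each library and the shared ones. Single V genes given with their J genes, and the smaller clones, were named after their values were seen. The functions for intervals, usage, pairing and repeats were tested on simulated data. Python 3.11.15, numpy 2.4.6, scipy 1.17.1, pandas 2.3.3 and matplotlib 3.10.9 were used. Alternatives were each rearrangement once, at least 3 UMIs, barcodes with a beta chain, barcodes in the filtered expression library, no possible doublets, no shared barcodes, 1 chain per barcode, other gene minimums and orders, and 5 chosen after the data were seen. Amino acid sequences are not given, and some marker genes and the list sums that hold them are not reported here.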

Additional observations from a re-analysis of the deposited data

How the results depend on the processing

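Of 157 values recomputed, 128 stayed within the interval of the value reported (for rho and mean length, within 0.1, and for counts, within 1.5 times) and 29 moved. The sign changed in 0, but only rho could change sign, since the other values are never negative. Some of the 128 could hardly move. Leaving out shared barcodes kept 740 of 741 chains in the library labelled Healthy and all 359 of MTZ-preventive, and rare shares have wide intervals. The count of 128 is therefore not a measure of stability. The bin border moved the 5′ J share to 27.8% and 28.4% (library labelled Healthy and MTZ-preventive) with TRAJ38 and above, and to 13.2% and 12.3% with TRAJ48 and above. V order by family number gave proximal shares of 21.6% and 24.5%. With contigs of at least 3 UMIs, which left 248 and 142 chains, repeated alpha chains fell to 0.837% of barcodes in the library labelled Healthy, 2 alpha chains to 2.16% in MTZ-preventive, its proximal V share was 35.2% and its mean CDR3 length 13.4 amino acids. Invariant NKT chains were then 0% in both libraries and MAIT chains 0% in MTZ-preventive. A shared beta chain, required after the data were seen, gave 1.56% for repeats in the library labelled Healthy. The ratio of repeated alpha chains, MTZ-preventive over the library labelled Healthy, was 5.16 with 3 UMIs and 1.52 among barcodes that passed the gene expression limits, and without possible doublets it was 1.72 (0.898–3.28). The count of V genes 2-fold apart was 0 of 22 with merged copies and 0 of 21 with an interval without 1. It was 1 of 15 with a beta chain required, 1 of 16 without possible doublets, 1 of 17 with 1 chain per barcode and 7 of 48 with at least 10 chains. The count of J genes was 0 of 24 with each rearrangement once, 0 of 7 with at least 40 chains, 2 of 23 with a beta chain required, 2 of 24 with 1 chain per barcode and 5 of 37 with at least 10 chains. With 3 UMIs only 2 V genes and 1 J gene could be compared, and with at least 40 chains only 1 V gene, so the counts of 0 there say nothing about stability. The rho of V with J position stayed within 0.1 under each alternative run. A second alpha chain was found in 6.28% and 5.04% of barcodes whose best alpha chain had at least 3 UMIs. The low number of UMIs per alpha chain and the pool of 1 per condition limit all shares.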

Other observations

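Between the large libraries, 5 alpha chains were shared by V gene, J gene and CDR3, whether the CDR3 was compared by nucleotides or by amino acids. Without the V gene, the same J gene and CDR3 amino acids occurred in both libraries for 18, which were 2.54% of 710 in the library labelled Healthy and 5.29% (3.17–8.24) of 340 in MTZ-preventive. For beta chains 2 were shared by V gene, J gene and amino acids, and 8 without the V gene, which were 0.670% of 1194 and 1.56% (0.677–3.06) of 512.

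Among the alpha barcodes, Ccl5, Gzma, Gzmk, Il2rb and Cd44 were at a higher level in MTZ-preventive than in the library labelled Healthy. The intervals of these effector or memory genes did not overlap, whereas those of Nkg7 and Cxcr3, the rest of the 7 listed, did. How often intervals fail to overlap over all genes was not computed, so the number of such genes is not read further. The intervals take each UMI as a separate count and leave out the spread between barcodes. UMIs can lie together in few barcodes, such as 342 of Ccl5 in 3 barcodes of a clone of the library labelled Healthy. For Gzma, 99 UMIs of MTZ-preventive lay in the 12 clone barcodes and 60 in the 316 others. In alpha barcodes outside the clones its intervals overlapped, at 58.4 CPM (44.5–75.1) and 51.9 CPM (43.6–61.4) in the same order. Those of Ccl5, Gzmk, Il2rb and Cd44 did not overlap there. The 7 genes summed to 2956 CPM (2854–3060) against 1496 CPM (1450–1543), mostly from Ccl5, a chemokine of memory and cytotoxic T cells, at 2242 and 1017 CPM. Nkg7, a gene of cytotoxic granules, stood at 289 CPM (258–323) and 260 CPM (241–280.1), and Cxcr3, a chemokine receptor, at 12.1 CPM (6.45–20.7) and 14.2 CPM (10.1–19.5). In the same barcodes the fibroblast genes summed to 951 and 329 CPM and Lyz2 stood at 150 and 4.12 CPM, and their part in the difference was not tested. Cd44, the hyaluronan receptor of antigen-experienced cells, stood at 62.4 CPM (48.4–79.3) and 20.98 CPM (15.8–27.2). Lef1, a transcription factor of naive T cells, stood at 77.3 CPM (61.6–95.8) and 163 CPM (148–179). Ccr7, the chemokine receptor that guides T cells into lymph nodes, was at 175 CPM (151–202) and 158 CPM (143–174). Foxp3, the factor of regulatory T cells, had 9 and 16 UMIs, of 1073490 and 2669328 UMIs of all genes in these barcodes. These Foxp3 counts are not scaled for depth and are too few to order the libraries. Ctla4, an inhibitory receptor, stood at 94.1 CPM (76.6–114) and 43.1 CPM (35.6–51.7).

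In the expression libraries, 22.2% of Trav UMIs in barcodes with 1 alpha chain of the library labelled Healthy, and 17.0% in MTZ-preventive, were of a V gene of another family than that of the contig. In MTZ-treated it was 0 of 21 UMIs.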
